A study of Mus musculus with 16 samples.

Results

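The 10 genes described here are Depp1, Txnip, Fkbp5, Tsc22d3, Sgk1, Zbtb16, Cdkn1a, Per1, Pdk4 and Errfi1, a named list of genes known to respond to glucocorticoid hormone, to the FOXO transcription factors, or to both. They are 10 of the 25719 gene identifiers in each library, and all 10 were among the 15109 genes with enough counts to be tested. Depp1 was chosen on its levels at postnatal day 25 (P25), where it differed between genotypes, and the others were added as its functional relatives with results at that age known. Values of the P25 genotype comparison are therefore given for the 10 genes as a description, and where a count past a threshold is printed for it, nothing is read from that count.

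RNA was sequenced from the mouse trigeminal ganglion, the cluster of sensory neurons and glia that serves the face. Wild-type (WT) mice and knockout (KO) mice lacking Nogo-A, the largest protein of the Rtn4 gene and an inhibitor of neurite growth, were compared at embryonic day 14 (E14) and at P25. Each of the 4 groups had 4 libraries of 1 ganglion each. The labels name neither the KO allele nor the strain, sex, hour of collection or housing of the mice, and in the library names WT replicates 2 and 4 at E14 carry the left and right sides of 1 number, as do KO replicates 1 and 3, so those ganglia may share an animal. The p-values below treat every ganglion as independent.

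Glucocorticoids bind the glucocorticoid receptor (Nr3c1), which moves to the nucleus and switches on genes that include its own brake, Fkbp5, and the anti-inflammatory leucine zipper gene Tsc22d3, also called Gilz. FOXO factors stay active when insulin and growth factor signalling through AKT is low, as in fasting, and induce genes of fuel choice, autophagy and oxidative stress defence. The programmes meet at shared targets such as Pdk4, Sgk1, Cdkn1a and Txnip, which is why the genes are read side by side here.

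RefSeq promoters (GRCm38.p6 assembly, matched by symbol) were found for 9 of the 10 genes, and the 250 bases before each annotated start were searched on both strands. The windows below are shown because they hold letters that the receptor, FOXO or clock factors are known to recognise. The palindromic glucocorticoid element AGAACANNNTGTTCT occurred in 3 of 32851 promoter windows of that length (0.00913%), 1 of them at Sgk1. The hexamer AGAACA, read as TGTTCT on the other strand, which also forms each arm of that palindrome, occurred in 16.1% of windows and at Sgk1 and Tsc22d3 among the members. The FOXO element GTAAACA was in 3.17% of windows and at Txnip, and the E-box CACGTG, bound by clock and glucose-sensing factors, was in 6.02% and at Fkbp5, Per1 and Sgk1. In this assembly the genes that the P25 values turn on lie at chr6:116650684-116652847 (Depp1), chr3:96557957-96561857 (Txnip), chr10:21882184-21999903 (Sgk1), chr11:69095108-69109965 (Per1) and chr17:28398753-28486149 (Fkbp5). Capitals mark these matches, all sequences run 5′ to 3′ on the gene's strand, and a match is a description, not a measured binding site. The Sgk1 start shown lies inside the gene's longer transcripts. In the Sgk1 window an E-box and a hexamer overlap at the left end, and the palindrome follows.
Sgk1, chr10:21993640-21993889, + strand: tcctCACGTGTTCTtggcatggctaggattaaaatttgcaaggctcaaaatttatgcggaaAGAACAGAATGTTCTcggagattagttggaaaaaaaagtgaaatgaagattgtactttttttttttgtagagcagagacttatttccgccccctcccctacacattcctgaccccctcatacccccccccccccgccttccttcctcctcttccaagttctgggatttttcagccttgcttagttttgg
Fkbp5, chr17:28486150-28486399, − strand: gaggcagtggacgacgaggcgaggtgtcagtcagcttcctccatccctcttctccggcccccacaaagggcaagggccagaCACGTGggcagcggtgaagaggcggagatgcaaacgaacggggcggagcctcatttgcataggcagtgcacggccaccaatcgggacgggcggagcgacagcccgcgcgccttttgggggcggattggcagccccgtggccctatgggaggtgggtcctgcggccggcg
Txnip, chr3:96557825-96557853, + strand: ttggaggcctgGTAAACAagggccaagta
Per1, chr11:69098771-69098800, + strand: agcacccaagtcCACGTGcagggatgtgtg
Tsc22d3, chrX:140600690-140600719, − strand: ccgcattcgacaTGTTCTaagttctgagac
The Depp1 window held no exact match to these letters, and looser variants of them were not searched. Its stretch outside annotated exons is shown.
Depp1, chr6:116650434-116650608, + strand: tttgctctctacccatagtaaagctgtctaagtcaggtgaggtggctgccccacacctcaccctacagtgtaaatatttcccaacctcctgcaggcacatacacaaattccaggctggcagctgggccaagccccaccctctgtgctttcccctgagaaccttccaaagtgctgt

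Library totals lay between 15532373 and 29562379 estimated counts, and the P25 libraries were the deeper ones. Levels are given as counts per 1000000 library counts (CPM), with library totals scaled by the trimmed mean of M-values, and they are compared between libraries within a gene, never between genes. Rtn4 was read at 144 to 521 CPM in the E14 WT libraries, 236 to 405 in E14 KO, 406 to 542 in P25 WT and 345 to 385 in P25 KO. These totals pool Nogo-A with the shorter Nogo-B and Nogo-C products of the gene and so do not check the genotype labels. All 15 sensory neuron markers were detected in every library, with a summed level of 15640 to 24340 CPM. KO replicate 4 at P25 and WT replicate 2 at E14 stood apart from their groups for several members, and values are given with and without them where they matter. In whole ganglia, fewer cells of a type and less RNA per cell cannot be told apart.

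**Figure D1:**
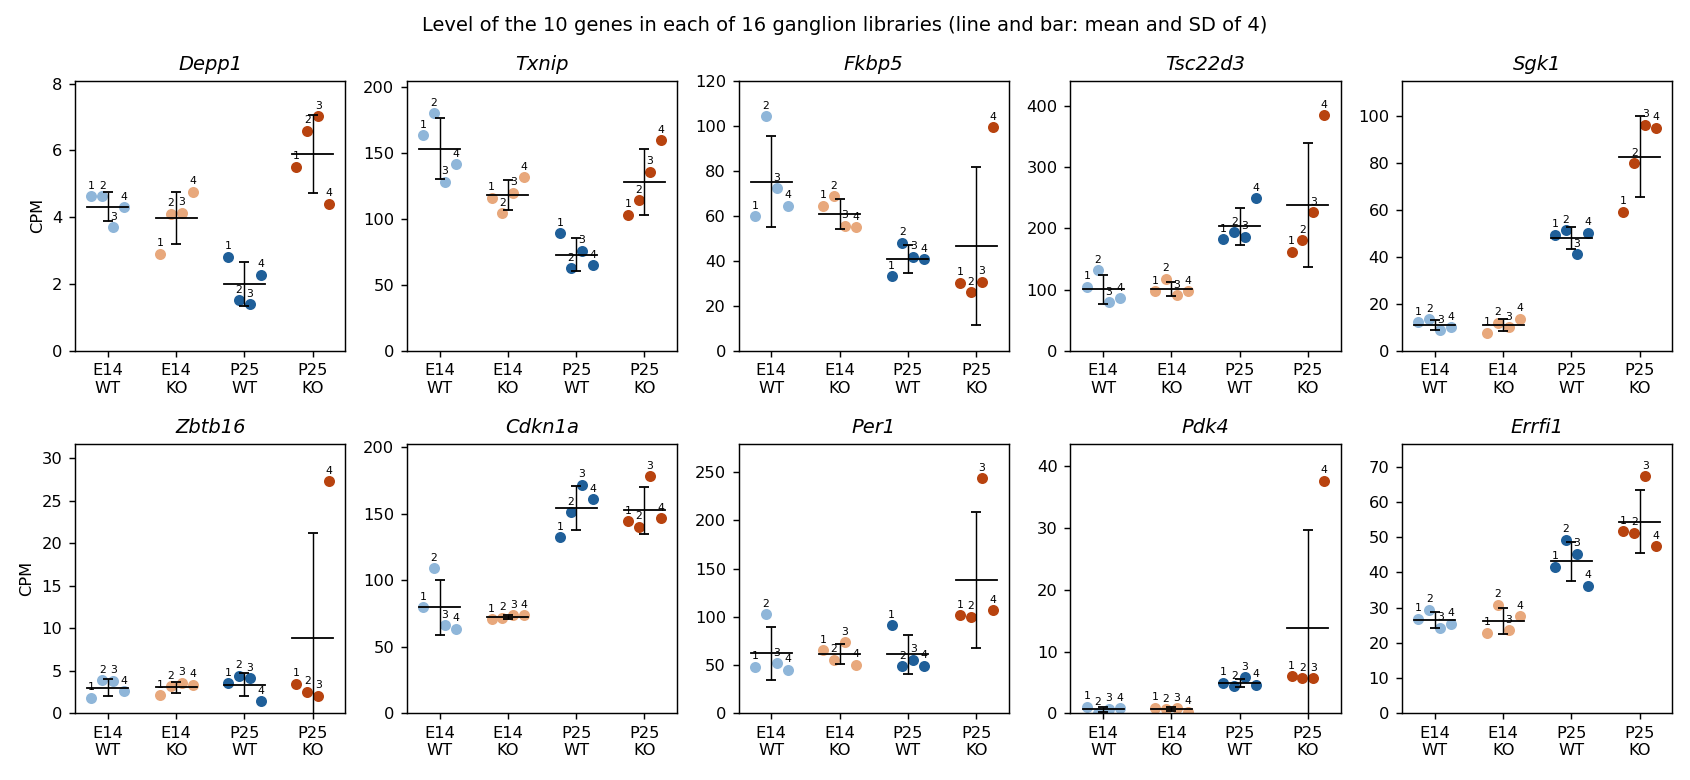
Level of each of the 10 genes in every library (points, numbered by replicate, CPM on a linear axis from 0), with group means and SD as lines and bars (bars end at 0 where they would pass below it), for WT and KO ganglia at E14 and P25. KO replicate 4 at P25 stands far above the other 3 KO libraries for Fkbp5, Zbtb16 and Pdk4, while Depp1, Txnip, Sgk1 and Per1 have all 4 P25 KO libraries above all 4 P25 WT libraries.

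At P25 the 10 genes fell into separable patterns. In Depp1, Txnip, Sgk1 and Per1 every KO library lay above every WT library. In Fkbp5, Zbtb16, Pdk4 and Tsc22d3 a single KO library, replicate 4, lay at 1.55 to 6.3 times the highest of the other 7. Errfi1 and Cdkn1a differed less. The count of members with no overlap and KO higher was 4 of 10, beside 2.05% of all genes tested, and 1 member, Depp1, was among the 7 genes (0.0463% of those tested) past the adjusted threshold of 0.05 in edgeR; since that contrast chose Depp1, nothing is read from either count.

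Depp1 encodes a FOXO-induced regulator of autophagy found at high levels in endothelium. At P25 it was read at 2.82, 1.52, 1.40 and 2.28 CPM in WT replicates 1 to 4 and at 5.52, 6.59, 7.03 and 4.40 CPM in KO replicates 1 to 4. The lowest KO library was above the highest WT library. The group means were 2.00 ± 0.669 and 5.89 ± 1.17 CPM (SD, n = 4 each), a log2 difference of 1.55 (SE 0.265). Leaving out KO replicate 4, the lowest KO library for this gene, gave 1.67 (SE 0.275). Depp1 is a low-count gene, with 36 counts in its lowest library.

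Txnip encodes the thioredoxin-interacting protein, an arrestin that inhibits thioredoxin and restrains glucose uptake. Its P25 levels were 89.0, 62.4, 75.7 and 64.8 CPM in the WT libraries and 103, 114, 136 and 160 CPM in the KO libraries. Again the groups did not overlap, with WT replicate 1 nearest to the KO libraries and KO replicate 4 the highest of all. The log2 difference was 0.81 (SE 0.172), and it was 0.69 (SE 0.172) without KO replicate 4.

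Because Depp1 is known from endothelium, 1 marker list was set beside it. Summed endothelial markers at P25 were 178, 149, 181 and 191 CPM in the WT libraries and 214, 194, 256 and 154 CPM in the KO libraries, so 3 KO libraries lay above all WT libraries and KO replicate 4 lay below 3 of them. Per 100 CPM of endothelial markers, Depp1 stood at 1.59, 1.02, 0.773 and 1.19 in WT and at 2.58, 3.39, 2.74 and 2.85 in KO. These ranges did not overlap. For Txnip the same ratio was 33.9 to 50.1 in WT and 48.2 to 103 in KO, and those ranges overlapped. The ratios are a description, and the part of endothelial content in either difference was not tested.

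Sgk1 encodes a kinase of the AKT family that glucocorticoids and mineralocorticoids induce and that inactivates FOXO3. At P25 its levels were 49.4, 51.4, 41.1 and 50.4 CPM in WT and 59.3, 80.0, 96.2 and 95.04 CPM in KO. KO replicates 3 and 4 were the highest and KO replicate 1 the nearest to WT, with no overlap. The log2 difference was 0.78 (SE 0.199), and 0.71 (SE 0.21) without KO replicate 4. The palindromic element printed above lies before 1 of its 6 annotated starts.

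Per1, a period gene of the circadian clock that glucocorticoids and neuronal activity both induce, was read at 91.1, 49.1, 55.7 and 49.6 CPM in P25 WT and at 102, 100.3, 244 and 107 CPM in P25 KO. WT replicate 1 stood apart from the other WT libraries, and KO replicate 3 stood far above the rest. All KO libraries were above all WT libraries, and the log2 difference was 1.17 (SE 0.306), or 0.75 without KO replicate 3. Immediate early genes, which neuronal activity and cell stress induce within minutes, were read in the same libraries. Their 20 members summed to 322 to 463 CPM in P25 WT. In KO they summed to 1499, 1641 and 1655 CPM in replicates 1 to 3 and to 323 CPM in replicate 4. KO replicate 4 was at the WT level for the immediate early genes, and its Per1 and Sgk1 levels were above WT. The part of the immediate early response in the Per1 and Sgk1 differences was not tested.

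Fkbp5, the co-chaperone that lowers the hormone affinity of the glucocorticoid receptor, was read at P25 at 33.0, 48.0, 41.8 and 40.9 CPM in WT and at 30.2, 25.99, 30.7 and 99.4 CPM in KO. KO replicate 4 was 2.07 times the highest of the other 7 libraries, and the other 3 KO libraries were below all WT libraries. The log2 difference was 0.19 (SE 0.319) with all libraries and -0.50 (SE 0.193) without KO replicate 4, so 1 library set its sign.

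Zbtb16, a zinc finger repressor that is among the most hormone-inducible genes in many tissues, stood at 3.58, 4.42, 4.16 and 1.43 CPM in WT and at 3.5, 2.54, 2.10 and 27.3 CPM in KO. KO replicate 4 was 7.8 times the median of the other 7 libraries. The log2 difference of 1.38 (SE 0.606) became -0.32 (SE 0.369) without it.

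Pdk4 encodes a pyruvate dehydrogenase kinase that spares glucose in fasting, under both FOXO1 and the glucocorticoid receptor. It was read at 4.99, 4.42, 5.88 and 4.64 CPM in WT and at 5.97, 5.69, 5.70 and 37.6 CPM in KO. KO replicates 1 to 3 lay near the top of the WT range and replicate 4 was 6.3 times the highest of the others. The log2 difference was 1.46 (SE 0.525), and 0.22 (SE 0.382) without KO replicate 4.

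Tsc22d3 was read at 182, 194, 186 and 248.8 CPM in WT and at 161, 181, 226 and 385 CPM in KO. Here too KO replicate 4 was the highest library, at 1.55 times the next, and the remaining libraries overlapped. The log2 difference was 0.23 (SE 0.23), and -0.10 (SE 0.186) without it.

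Cdkn1a encodes the cell cycle inhibitor p21, a target of p53, FOXO and the glucocorticoid receptor. Its P25 levels of 133 to 172 CPM in WT and 141 to 178 CPM in KO overlapped almost fully, with a log2 difference of -0.02 (SE 0.167). Errfi1, also called Mig6, a glucocorticoid-induced feedback inhibitor of the EGF receptor, was read at 41.6, 49.2, 45.3 and 36.3 CPM in WT and at 51.8, 51.3, 67.3 and 47.4 CPM in KO. Only KO replicate 4 fell within the WT range, and the log2 difference was 0.34 (SE 0.163), or 0.40 (SE 0.171) without that library and 0.22 without KO replicate 3, the highest.

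Over the 10 members the median P25 difference was 0.80 on the log2 scale, beside -0.02 over all genes tested. Without KO replicate 4 the median was 0.31, and 7 members were positive where 9 had been. KO replicate 4 was the highest of the 8 P25 libraries for Txnip, Fkbp5, Tsc22d3, Zbtb16 and Pdk4, and KO replicate 3 for Depp1, Sgk1, Cdkn1a, Per1 and Errfi1. Without KO replicate 4, 5 members had all KO libraries above all WT libraries and Fkbp5 had all below, which is 6 of 10 beside 6.55% of all genes. The contrast is the one that chose Depp1, and the library was left out after it was seen to stand apart. Nothing is therefore read from this count.

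**Figure D2:**
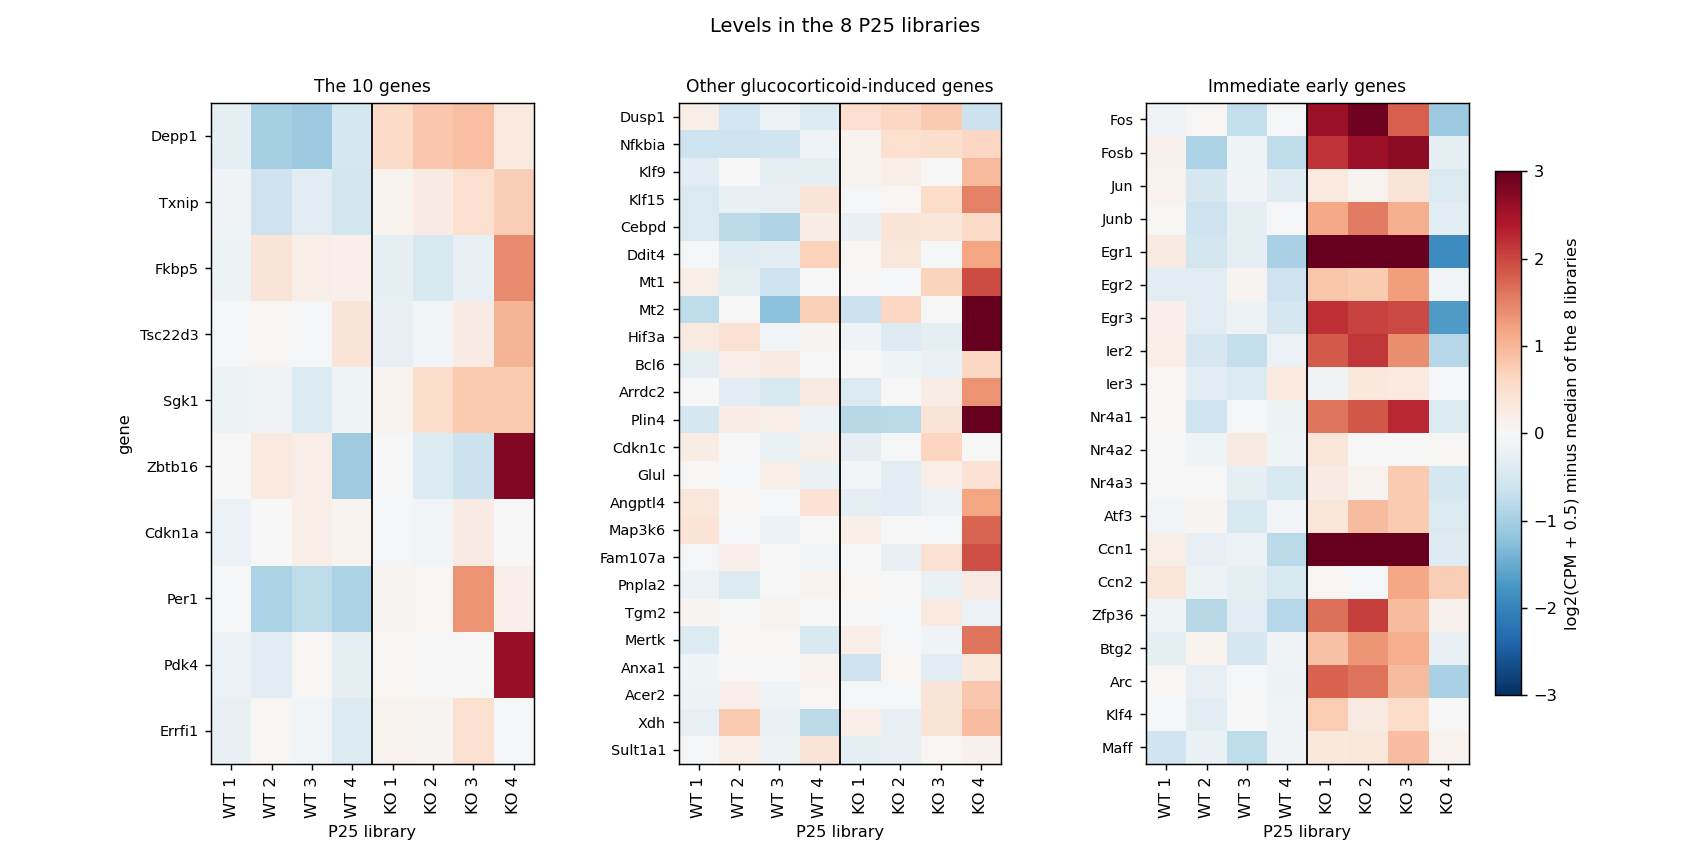
The 10 members, the other glucocorticoid-induced genes and the immediate early genes in the 8 P25 libraries, as log2(CPM + 0.5) minus the gene's median over those libraries (colour, with its ends at ±3). KO replicate 4 is the highest column for 20 of the 24 other glucocorticoid-induced genes tested and for none of the immediate early genes. All of the immediate early genes are at their highest in KO replicates 1 to 3.

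A wider list of glucocorticoid-induced genes, written with earlier results known, was read in the same way. KO replicate 4 was the highest of the 8 P25 libraries for 20 of the 24 tested (83.3%), beside 12.5% of all genes tested. The lipid droplet coat gene Plin4 was at 17.3 CPM there and at most 1.323 CPM in the other 7. Hif3a, a hypoxia-factor inhibitor, was at 12.7 CPM against at most 1.26. The metallothionein genes Mt2 and Mt1, which buffer zinc and copper, were at 158 and 192 CPM, against at most 18.6 and 77.9. Fam107a, a stress-induced actin-bundling gene, was at 82.5 CPM against at most 29.0, and the Krüppel-like factor gene Klf15 was at 28.5 against at most 14.6. The exceptions were Dusp1, Tgm2, Cdkn1c and Sult1a1. Dusp1, a phosphatase gene that is also an immediate early gene, was at 23.5 CPM, the lowest of the 8.

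In the P25 genotype comparison 0 of those 24 genes passed the adjusted threshold in edgeR, 21 were positive, and their median log2 difference was 0.60. Without KO replicate 4 the median was 0.09 with 17 positive. Of 22 other FOXO-induced genes tested, 7 (31.8%) were highest in KO replicate 4, among them Sesn1, a stress-induced inhibitor of mTORC1, at 73.7 CPM against at most 44.0. None of the 22 passed in the genotype comparison, where their median was 0.06, and -0.01 without KO replicate 4.

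Cell type markers were set beside KO replicates 4 and 3. In KO replicate 4 the summed neuron markers lay within the range of the other libraries. Its macrophage markers summed to 255 CPM, against 312 to 362 CPM in the other 7, and its myelinating Schwann cell markers to 22440 CPM, against 28780 to 45020. Its mural cell and fibroblast sum (1419 CPM) and oligodendrocyte sum (201 CPM) were also the lowest at P25. KO replicate 3 was the highest P25 library for 9 of 10 myelinating Schwann cell markers, which summed to 45020 CPM there. It was also the highest for 10 of 14 endothelial markers, beside 12.7% of all genes tested. The 10 skeletal muscle markers summed to 2.58 to 2.94 CPM in the P25 WT libraries and to 3.79, 5.34, 6.48 and 7.90 CPM in KO replicates 1 to 4, with none of the 10 at 0 in any KO library. The 8 adipocyte markers, a possible source of Plin4, summed to 0.825 to 1.29 CPM in WT and to 0.782 to 1.63 CPM in KO, with 2 to 4 of the 8 at 0. Y-linked genes summed to 0 in P25 WT replicate 3 and in KO replicates 1 and 4, so 1 library without Y-linked reads was in the WT group and 2 were in the KO group. The part of these values in the member differences was not tested.

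**Figure D3:**
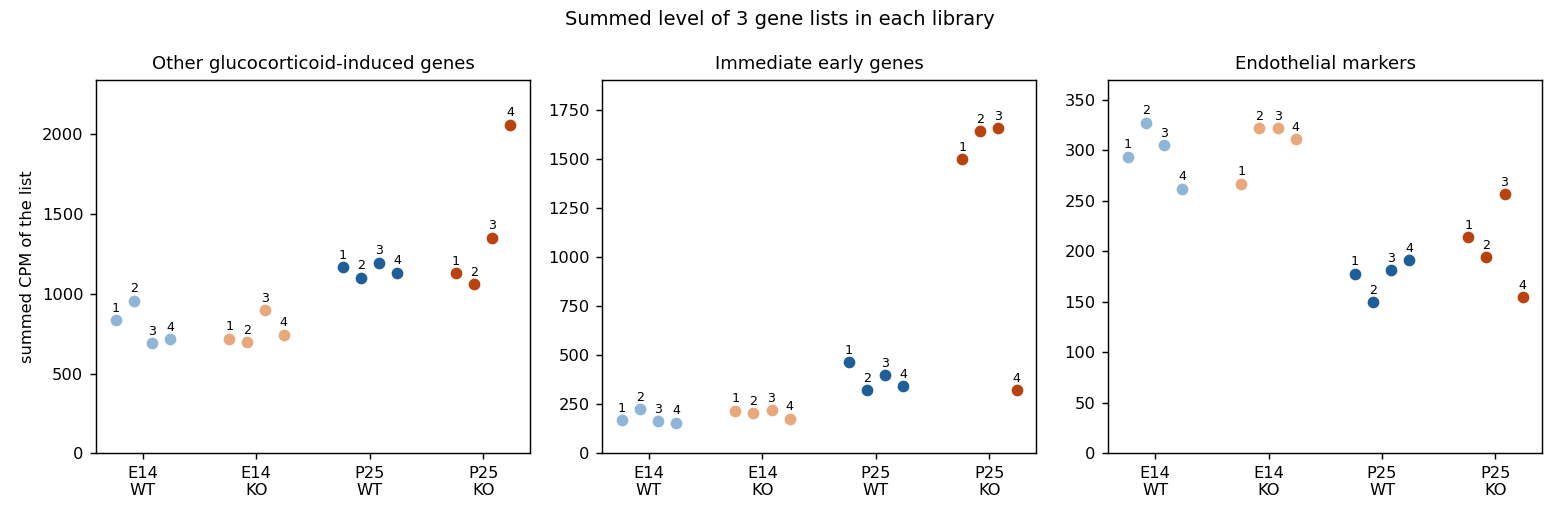
Summed CPM of the other glucocorticoid-induced genes, the immediate early genes and the endothelial markers in every library (points, numbered by replicate), with E14 and P25 groups along the x axis. At P25 the other glucocorticoid-induced genes reach 2060 CPM in KO replicate 4 against 1060 to 1351 CPM in the other 7 libraries, and the immediate early genes lie between 1499 and 1655 CPM in the other 3 KO libraries.

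The E14 genotype comparison contrasts only E14 libraries, although its SE and p-values come from a spread estimated over all 16, and there it was possible to ask whether the same genes differed before birth. In edgeR 0 of the 10 members passed an adjusted p of 0.05, beside 0.0199% of all genes tested. An unadjusted p under 0.05 was found for 1 of the 10, beside 4.86% of all genes, and nothing is read from it. No member had groups that did not overlap, beside 1.63% of all genes. The median member difference was -0.04 on the log2 scale, with 2 members positive, and -0.04 over all genes. Without E14 WT replicate 2 it was 0.05 with 6 positive, beside -0.0012 over all genes, so 1 library set its sign.

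Depp1 was read at E14 at 4.63, 4.64, 3.70 and 4.29 CPM in WT and at 2.91, 4.11, 4.14 and 4.76 CPM in KO. The ranges overlapped, with a log2 difference of -0.11 (SE 0.26, edgeR adjusted p = 0.977). Txnip stood at 164, 180, 128 and 141 CPM in WT and at 116, 104, 120 and 132 CPM in KO. The KO libraries were in the lower range, 1 of them above the lowest WT library, and the log2 difference was -0.38 (SE 0.171, edgeR adjusted p = 0.942). Txnip was the member whose unadjusted p was under 0.05, and its estimate has the opposite sign to the one at P25.

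WT replicate 2 was the highest of the 4 E14 WT libraries for 9 of the 10 members, Pdk4 being the exception. For Fkbp5 it was at 104 CPM and the other WT libraries at 59.8 to 72.4, and for Per1 it was at 103 CPM and the others at 45.5 to 52.3. It was the highest of the 8 E14 libraries for 6 of the 10 members, and also for 34.5% of all genes tested. Fkbp5 had a log2 difference of -0.30 (SE 0.319, edgeR adjusted p = 0.943) and Cdkn1a of -0.13 (SE 0.168, adjusted p = 0.947). In the other 6 members the estimate lay between -0.06 and 0.03. Without E14 WT replicate 2 the difference was -0.11 for Fkbp5, 0.06 for Cdkn1a, 0.33 for Per1, -0.38 for Pdk4 and -0.29 for Txnip, and again no member passed.

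The difference between the genotype effects at P25 and E14 was 1.67 (SE 0.37) for Depp1, 1.19 (SE 0.243) for Txnip, 1.19 for Per1 and 0.81 for Sgk1 on the log2 scale. These are given as a description because they contain the P25 contrast.

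**Figure D4:**
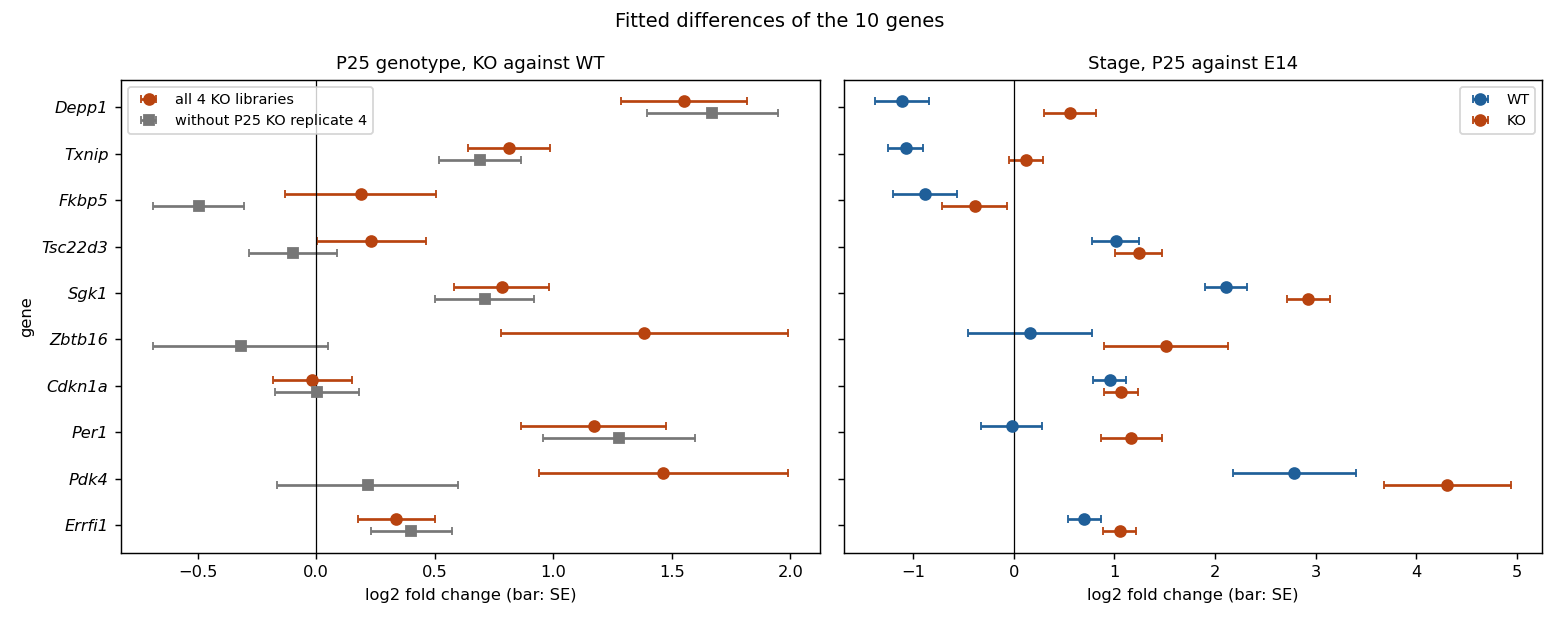
Fitted log2 differences of the 10 genes with their SE (bars). Shown are KO against WT at P25, with all KO libraries and without KO replicate 4, and P25 against E14 in each genotype. Without KO replicate 4 the P25 genotype estimates of Fkbp5, Zbtb16 and Tsc22d3 lie below 0. Sgk1 and Pdk4 are far above 0 in both stage comparisons.

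Across development the members moved in both directions. In WT ganglia 5 of the 10 were higher at P25 and 3 were lower past the threshold in edgeR, where 29.7% of all genes tested were higher and 29.8% lower (59.6% in all). The stage comparisons share their P25 libraries with the P25 genotype comparison that chose Depp1, which is 1 of the 3. For Depp1 the stage values are therefore a description with no test. The other members were added with P25 results known. For any member, a gap between its WT and KO stage values contains its P25 genotype difference, and nothing further is read from such a gap. Of the 10 members, the 8 past the threshold and no others had groups that did not overlap, beside 50.2% of all genes tested.

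Pdk4 rose the most among the members, from 1.06, 0.122, 0.739 and 0.876 CPM in the E14 WT libraries to the P25 WT levels above. Every P25 library was higher than every E14 library, a log2 difference of 2.79 (SE 0.609, edgeR adjusted p = 0.000572), although the lowest E14 library held only 2 counts. Sgk1 rose from 12.2, 13.5, 8.76 and 9.99 CPM to 41.1 to 51.4 CPM, by 2.11 (SE 0.209, adjusted p = 4.14e-08). Tsc22d3 rose by 1.02 (SE 0.232, adjusted p = 0.00087) from 79.0 to 132 CPM at E14. Cdkn1a and Errfi1 rose by 0.95 (SE 0.168) and 0.70 (SE 0.164). These 5 genes include targets of both programmes.

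Depp1, Txnip and Fkbp5 had lower levels at P25 in WT. Depp1 was at 3.70 to 4.64 CPM at E14 and at 1.40 to 2.82 CPM at P25, a log2 difference of -1.11 (SE 0.266). Txnip fell by 1.07 (SE 0.173, edgeR adjusted p = 2.45e-05), from 128 to 180 CPM to 62.4 to 89.0 CPM. Fkbp5 fell by 0.88 (SE 0.321, adjusted p = 0.0237), a call that was lost without E14 WT replicate 2 (adjusted p = 0.0734) or P25 WT replicate 1 (adjusted p = 0.0691). Zbtb16 and Per1 had differences of 0.17 and -0.02 and did not pass.

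In KO ganglia 7 of the 10 rose and none fell, where 30.6% of all genes tested rose and 29.2% fell (59.8% in all). Of the 10 members, 6 had groups that did not overlap, beside 59.8% of all genes tested, and nothing is read from that count. Sgk1 rose by 2.93 (SE 0.215, edgeR adjusted p = 5.88e-10), Pdk4 by 4.31 (SE 0.631, adjusted p = 7.79e-06), Tsc22d3 by 1.24 (SE 0.233), Cdkn1a by 1.07 (SE 0.169), Errfi1 by 1.05 (SE 0.165) and Per1 by 1.17 (SE 0.306). Without P25 KO replicate 4 the Pdk4 difference was 3.08, and without P25 KO replicate 3 that of Per1 was 0.75 (adjusted p = 0.0232). Of the genes that were lower at P25 in WT, Depp1 had a difference of 0.56 in KO (SE 0.257) and Txnip of 0.12 (SE 0.171, edgeR adjusted p = 0.557). Depp1 was at 2.91 to 4.76 CPM in E14 KO and at 4.40 to 7.03 CPM in P25 KO, which overlapped. Txnip was at 104 to 132 and at 103 to 160 CPM.

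The seventh call in KO, Zbtb16, rested on 1 library. Its difference was 1.52 (SE 0.615, edgeR adjusted p = 0.0396) with overlapping groups, and -0.16 (adjusted p = 0.741) without P25 KO replicate 4. The call was also lost when any 1 of the E14 KO libraries was left out (adjusted p = 0.0566 to 0.0957). Fkbp5 had a difference of -0.39 in KO (SE 0.319, adjusted p = 0.305), and without that replicate it was -1.04 (adjusted p = 0.000183). For Fkbp5 it was between -0.23 and -0.16 with any 1 of the other P25 KO libraries left out.

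The other genes of these pathways were read by stage from lists written with earlier results known. Each count below stands beside the WT shares of all genes tested, 29.7% risen and 29.8% fallen, and draws nothing particular to a list. Among the glucocorticoid receptor and its regulators, 6 of 12 rose and 2 fell in WT. The receptor gene Nr3c1 rose by 1.45 (SE 0.257, edgeR adjusted p = 7.06e-05), from 7.70 ± 3.29 to 21.1 ± 1.74 CPM (SD, n = 4 each). Nr3c2, the mineralocorticoid receptor, rose by 5.13 (SE 0.456), from 0.470 ± 0.278 CPM to 16.7 ± 3.32 CPM. Hsd11b2, the enzyme that inactivates corticosterone, fell by 3.72 (SE 0.468), from 3.59 ± 1.87 to 0.268 ± 0.109 CPM. Of the 24 other glucocorticoid-induced genes, 15 rose and 4 fell. Among those averaging at least 1 CPM, Xdh (5.755) and Sult1a1 (5.71) rose the most and Hif3a (-5.68) fell the most.

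Among the FOXO genes and the insulin pathway 3 of 14 rose and 3 fell in WT, where 59.6% of all genes passed in either direction. Foxo1 rose by 0.73 (SE 0.208, edgeR adjusted p = 0.00487) and Foxo4 by 0.61 (SE 0.175), and the brain-enriched Foxo6 fell by 3.32 (SE 0.276), from 51.0 ± 24.5 to 5.11 ± 0.586 CPM. Of 22 other FOXO-induced genes, 13 rose and 5 fell. The ubiquitin ligase gene Fbxo32 (atrogin-1) rose by 2.14 and the autophagy gene Gabarapl1 by 1.959, while the cell death gene Bcl2l11 fell by 1.94 and the transcriptional cofactor gene Cited2 by 1.91.

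Txnip's own relatives were the thioredoxin, arrestin and glucose-sensing genes, of which 3 of 12 rose and 3 fell in WT. Txn1, the thioredoxin that Txnip binds, rose by 1.20 (SE 0.283, edgeR adjusted p = 0.00111). Arrdc4, the arrestin most like Txnip, fell by 1.36 (SE 0.142, adjusted p = 8.48e-08), from 46.0 ± 3.48 to 17.9 ± 1.45 CPM. In P25 KO it stood at 18.6 ± 0.8289 CPM, beside the higher Txnip there.

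Beside the same 29.7% and 29.8% of all genes, 12 of 15 clock genes rose and 2 fell in WT, among them Nr1d2, a repressor of the clock loop, which rose by 3.31 (SE 0.334), and Cry1, which fell by 1.495 (SE 0.194). Of 15 p53 pathway genes tested beside Cdkn1a, 5 rose and 8 fell, with Phlda3 up by 1.87 and the apoptosis gene Bbc3 (Puma) down, at -2.51. Of 17 genes of pyruvate dehydrogenase control and fatty acid oxidation beside Pdk4, 11 rose and 1 fell, with the sister kinase Pdk2 at 1.69 and the mitochondrial carrier Ucp2 at 2.27. Of 12 genes of the EGF receptor family and its inhibitors beside Errfi1, 3 rose and 6 fell, with the receptor Egfr at -1.19 and its relative's ligand Nrg1 at 1.13.

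Few genes of these lists passed in the genotype comparisons. At E14 no gene of any of them passed in edgeR, and the clock gene Per2 came closest, at -0.89 (SE 0.266, adjusted p = 0.907). At P25 none of the receptor, FOXO pathway, thioredoxin, clock, p53, pyruvate dehydrogenase or EGF receptor lists held a gene that passed. Nfkbia, the NF-kappaB inhibitor that glucocorticoids induce, averaged 12.3 ± 2.52 CPM in the WT libraries and 23.7 ± 3.66 CPM in the KO libraries, a log2 difference of 0.95 (SE 0.203, adjusted p = 0.169), with no overlap. The clock gene Per3 was at 6.58 ± 0.486 and 12.1 ± 0.436 CPM, at 0.88 (SE 0.237, adjusted p = 0.791). Of 20 immediate early genes, 2 passed, Ccn1 and Zfp36, beside 0.0463% of all genes, and 11 did without KO replicate 4, beside 0.0919%.

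The genes whose levels followed a member most closely were found from deviations from the group means over the 16 libraries. They were picked as the highest of 11405 genes of at least 5 CPM for Depp1 and of 11404 for the others. Picking the highest of so many genes gives high correlations by itself, and the libraries share depth and handling. The correlations are therefore a description only. Tsc22d3 was closest to Klf15 (Pearson r = 0.942, n = 16 libraries), and r was 0.88 without the 2 libraries farthest from its median, P25 KO replicate 4 and E14 WT replicate 2. Fkbp5 was closest to Hif3a, with r = 0.938 and 0.81 without the same 2 libraries. Its likeness to Tsc22d3 was 0.821 and 0.482, so much of it rested on those libraries. Txnip was closest to Usp54, a ubiquitin protease relative, at 0.869, and to the p53-induced nuclease gene Aen, at 0.821. Depp1 was closest to Cnksr3, a scaffold of sodium channel control, at 0.817, and the BMP target Id1 came in at 0.751.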

How the data were processed

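Trigeminal ganglion RNA was sequenced from stranded mRNA libraries (TruSeq), per the labels' protocols. The authors deposited 1 table of estimated counts per gene and library. Per the submitters' processing notes the build was GRCm39 and the tools included kallisto 0.46, fastp 0.20.0 and DESeq2 1.32.0, whose roles are not stated. Identifiers were matched to symbols for 25614 of 25719. Estimated counts were rounded and fitted over all 16 libraries, 1 mean per group, with edgeR 4.0.16 in R 4.3.3 (TMM scaling, filterByExpr, glmQLFit and glmQLFTest, Benjamini-Hochberg over 15109 genes, threshold 0.05). SEs come from the fit. CPM are TMM-scaled. Replicates are separate ganglia.

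The members and gene lists were chosen with earlier results of these data known. Named were all members and, in each other list, genes called between genotypes, the 2 of lowest p per genotype comparison, and up to 3 called per direction by stage in WT with the largest change and at least 1 CPM on average; some values at group ends were added after they were seen. Alternatives were DESeq2 1.42.0, other scaling and filters, a replicate block, a Y-linked covariate, same-numbered ganglia summed, and each library left out; list values without P25 KO replicate 4 were added after seeing the data. The code was tested on simulated data. Promoters and coordinates are RefSeq GRCm38.p6, not the authors' build. Figures used matplotlib 3.10.9.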

Additional observations from a re-analysis of the deposited data

Results flagged for a closer look

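In 40 checks (10 genes in 4 groups of 4 libraries) the highest library was set apart 6 times by Dixon's criterion for the gap over the range. The checks looked at both ends, and for normally distributed values chance sets apart the highest or the lowest library in about 1 in 20 groups. The checks used CPM on a linear scale and shared libraries between genes, so they were not independent and the 6 are not compared with that rate. In P25 KO, replicate 4 stood apart for Fkbp5, at 99.4 CPM with the others at 25.99 to 30.7, for Zbtb16, at 27.3 CPM with the others at 2.10 to 3.5, and for Pdk4, at 37.6 CPM with the others at 5.69 to 5.97. Per1 stood apart in 3 groups: E14 WT replicate 2 at 103 CPM, P25 WT replicate 1 at 91.1 CPM and P25 KO replicate 3 at 244 CPM.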

How the results depend on the processing

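The P25 genotype values chose Depp1, so counts of members past the threshold there, and in the interaction that contains them, describe the fits and support nothing. At P25 the count, 1 as fitted, was 2 with DESeq2, 0 with only the 2 groups compared, and 0 to 1 with each library left out (0 when the one left out was any of P25 WT replicates 2 to 4 or P25 KO replicates 1 to 3, or E14 KO replicate 3 or E14 WT replicate 1). In the interaction it was 0 as fitted and 2 with DESeq2. Replicate numbers did not pair the libraries: same-numbered libraries correlated between -0.157 and 0.154 at P25 and between -0.392 and 0.03 at E14, and 1 of 4 and 0 of 4 were closest to their own number. With the replicate block, 0 members passed between genotypes at P25. Zbtb16 by stage in KO ranged from -0.158 (without P25 KO replicate 4, a reversal) to 1.86 (without P25 KO replicate 2), and its call was lost in 9 other settings, library totals (adjusted p = 0.0512) and the block (0.154) among them. Fkbp5 by stage in WT lost its call without E14 WT replicate 2 (0.0734), without P25 WT replicate 1 (0.0691) and with ganglia summed (0.0504). Over all genes, 3 passed at E14 (6 with DESeq2, 1 to 5 with a library left out) and 7 at P25 (17 with DESeq2, 3 with the block, 3 with only the 2 groups compared, 11 with ganglia summed, 3 to 14 with a library left out, 14 without P25 KO replicate 4). In the interaction 0 genes passed, 8 with DESeq2, 1 with the Y-linked covariate and up to 7 with a library left out. With 4 ganglia a group, small differences in low-count genes such as Depp1, Zbtb16 and Pdk4 could not be resolved.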
